A study of Gallus gallus with 15 samples.

Results

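The 100 steadiest transcripts of the hen's germinal disc were examined over 15 RNA-seq libraries, as the genes whose level varied least between pools of tissue. Each gene's count was divided by the total of its library and put on a common scale, as CPM. The 100 genes of highest mean CPM were dropped, a mean of 50 CPM or more was required of the rest, and the 100 genes with the lowest coefficient of variation (CV, the SD over the mean) across all 15 libraries were taken. They were drawn from 4164 candidate genes, among 24881 in the deposited table. Because the rule used the CPM of every library, the spread of these genes is a description of how they were chosen.

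The germinal disc is the yolk-free spot at the surface of the egg cell where its chromosomes lie. A piece cut around it also takes along granulosa cells of the follicle wall. Late in the cycle the oocyte of the largest follicle completes its first meiotic division, and steroid hormones rise around that time. Transcripts that hold a steady share of the RNA under such conditions are the kind used as reference genes, against which other genes are scaled in quantitative PCR and sequencing. A steady share is a relative property, since it depends on what the share is taken of.

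Discs were cut from the F1 follicle, the next to ovulate, of female White Leghorn laying hens. Corticosterone hens received 1.5 mg of the main avian glucocorticoid in 0.5 ml peanut oil, testosterone hens received 1.5 mg of the androgen in the same volume, and control hens received 0.5 ml of the oil alone. Hens were injected 5 h ahead of the predicted ovulation and killed about 1.5 h afterwards, with 3.5 h left to ovulation. Each group had 5 libraries, each from discs pooled over several hens, with 8 discs per pool by the source names and 9 by the extraction protocol. The study asked if chromosome segregation genes responded to one or both hormones. Since pools are the replicates, p-values refer to variation among pools and not among individual hens.

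None of the 100 members could be given a gene name. The deposited table lists Ensembl identifiers without symbols, and the reference table used here matched 0 of the 24881 identifiers. The members' roles, sequences and positions were therefore not analysed here, and the tissue label was not checked against cell type markers. Only 4 members, of lowest and highest CV or fold change, are called by identifier and the others by their rank, from 1 for the lowest CV to 100 for the highest.

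Testosterone replicate 5 had 12913729 counts, and the other 14 libraries had 24550108 to 33795073. Corticosterone replicates 1 and 2 stood apart from the rest, with 27 and 24 genes that exceeded the median library 4-fold or more (0.5 CPM added to both). There were 11 such genes in testosterone replicate 2, 2 in control replicate 1 and 0 in the other 11 libraries. None of these genes was a member, and none could be, as the rule took genes of low spread over all libraries.

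ENSGALG00000007664 was the steadiest transcript, with a CV of 1.38% about a mean of 249.5 CPM. Its level was 246.1, 247.6, 253.0, 245.2 and 245.0 CPM in corticosterone replicates 1 to 5. It was 251.8, 250.3, 247.8, 251.5 and 249.8 CPM in testosterone replicates 1 to 5, and 246.5, 245.8, 254.4, 252.9 and 254.8 CPM in control replicates 1 to 5. The groups overlapped, and the highest library was 1.04 times the lowest. Its counts ran from 3226 to 8308 per library, so counting error alone would give a CV of 1.25%, and the observed CV was 1.10 times that. The 95% interval of the CV, for normally distributed values, was 1.01% to 2.17%. It takes no account of the choice of this gene for its lowest CV. In bulk RNA, fewer cells of a type and less RNA per cell cannot be told apart, for this or any other member.

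The next 9 members had CVs between 2.01% and 2.53%. In all, 9 members were under 2.5% and 36 under 3%. The rank 6 member had the CV nearest to counting error, 2.41% against 2.33%. It was at 69.0, 72.3, 70.2, 68.4 and 71.7 CPM after corticosterone, 72.2, 73.0, 73.1, 72.4 and 72.9 CPM after testosterone and 68.8, 69.7, 71.6, 68.8 and 71.0 CPM in controls.

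ENSGALG00000040506 was the last gene taken, at rank 100 with a CV of 3.40% about a mean of 120.5 CPM. Its level was 121.3, 124.2, 124.0, 123.7 and 120.6 CPM after corticosterone, 118.8, 121.1, 124.6, 120.6 and 112.5 CPM after testosterone and 110.9, 120.4, 118.1, 123.6 and 123.1 CPM in controls. Testosterone replicate 5 and control replicate 1 were its low libraries, and the other 13 lay between 118.1 and 124.6 CPM. Nothing set it apart from the genes that just missed the list. Ranks 96 to 100 had CVs of 3.36% to 3.40%, and the 5 genes just outside had 3.40% to 3.42%. The 95% interval of the CV at rank 100 was 2.49% to 5.36%, and 956 candidates had a CV under that upper limit. The CV of 96 members lay above the upper limit of the steadiest one. These intervals take no account of the choice by CV, so they do not show that it is steadier than the rest.

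**Figure D1:**
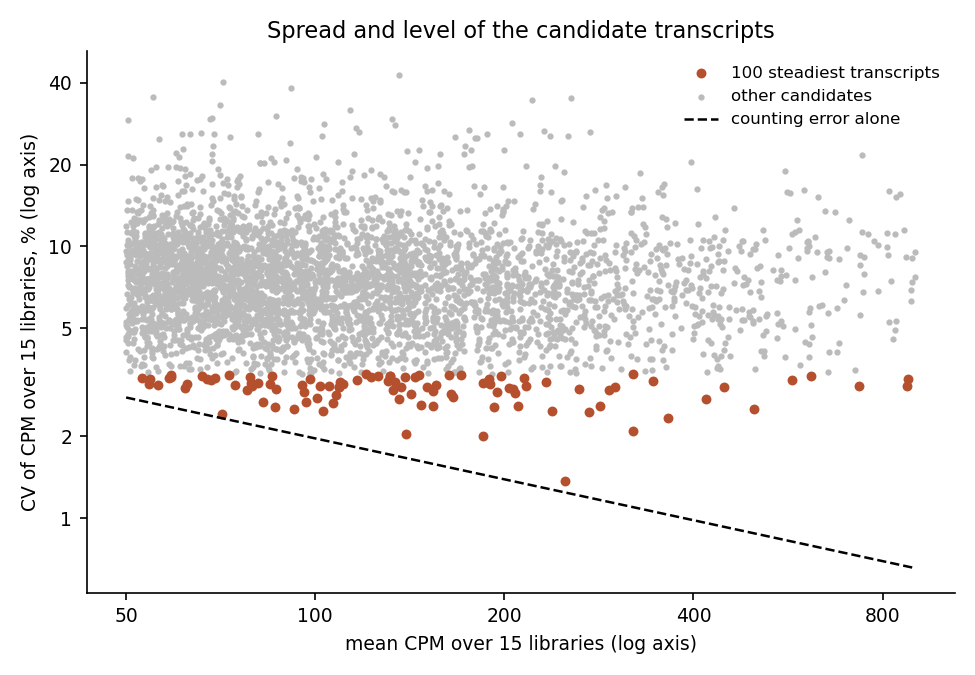
CV of CPM over the 15 libraries (vertical, %, log axis) against mean CPM (horizontal, log axis) for the 100 steadiest transcripts and the other 4064 candidates, with the CV that counting error alone would give as a dashed line. The members form the lower edge of the cloud, from 1.38% to 3.40%, and touch the dashed line at its left and middle part but not at its right end.

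As a group, the members had a median CV of 3.07%, against 7.31% over all 4164 candidates and 8.52% over the 100 most abundant genes that the rule dropped. The median CV that counting error would give was 1.69% for the members and 1.97% for the candidates. The observed CV was 1.79 times the counting value at the median member and 3.85 times at the median candidate. It was under 1.5 times in 57 candidates, of which 34 were members. It was over 3 times in 8 members and 2937 candidates. As the rule ranked this CV, low ratios among the members follow from the choice. The CV of the dropped genes was at least 5.50 times the counting value.

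Mean levels of the members ran from 53.1 to 879 CPM, with a median of 135 CPM, and the candidates had a median of 99.4 CPM. With the candidates divided into 4 equal classes by mean level, 35 members fell in the highest class and 34, 18 and 13 in the classes below it in turn. The members' median CV was similar in all of them, at 3.04% in the highest class and 3.26% in the lowest. Relative to counting error it was 2.27 times in the highest class and 1.28 times in the lowest. The counting CV of the median candidate was 1.25% and 2.57% in these classes. As no member had a CV above 3.40%, similar medians and the order of these ratios largely follow from the choice. The most abundant member, at rank 77, showed the largest such ratio, 4.92. It was at 943, 892, 890.4, 881 and 869 CPM after corticosterone, 896, 873, 891, 833 and 825 CPM after testosterone and 855, 884, 867, 906 and 883 CPM in controls, so its groups overlapped too. The least abundant, at rank 79, had counts of 648 to 1803 per library and a ratio of 1.22.

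All 1500 member values lay within 10% of their gene's mean, and 1378 of them, or 91.9%, lay within 5%. The largest deviation was 8.23%. Over the 100 members the ratio of the highest to the lowest library was between 1.04 and 1.14, with a median of 1.11. Testosterone replicate 5, the library of lowest depth, had 72 members within 5% of their mean, the fewest of any library, and the other 14 libraries had 84 to 97.

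What remained of the spread was partly shared. The median member was at 102, 101, 102, 100.1 and 99.8% of its own mean in corticosterone replicates 1 to 5. It was at 100.3, 100.4, 99.3, 98.3 and 98.4% in testosterone replicates 1 to 5 and at 98.8, 99.8, 100.02, 101 and 99.96% in control replicates 1 to 5. The highest value of a member fell in corticosterone libraries for 55 members, in testosterone libraries for 18 and in control libraries for 27. Its lowest value fell in corticosterone libraries for 27, in testosterone libraries for 50 and in control libraries for 23. Testosterone replicates 4 and 5 held 18 and 22 of these lowest values. Replicate 5 was the library of lowest depth, whereas replicate 4 had 30390157 counts. Highest values numbered 7 in replicate 5 and 0 in replicate 4. The part of depth in these counts was not tested. Counts of highest and lowest values were not taken over the candidates, so they do not set the members apart. By group means on library totals, which is a different measure, corticosterone was the highest for 60.3% of the candidates. Testosterone was the lowest for 33.3% of them and control for 43.9%.

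**Figure D2:**
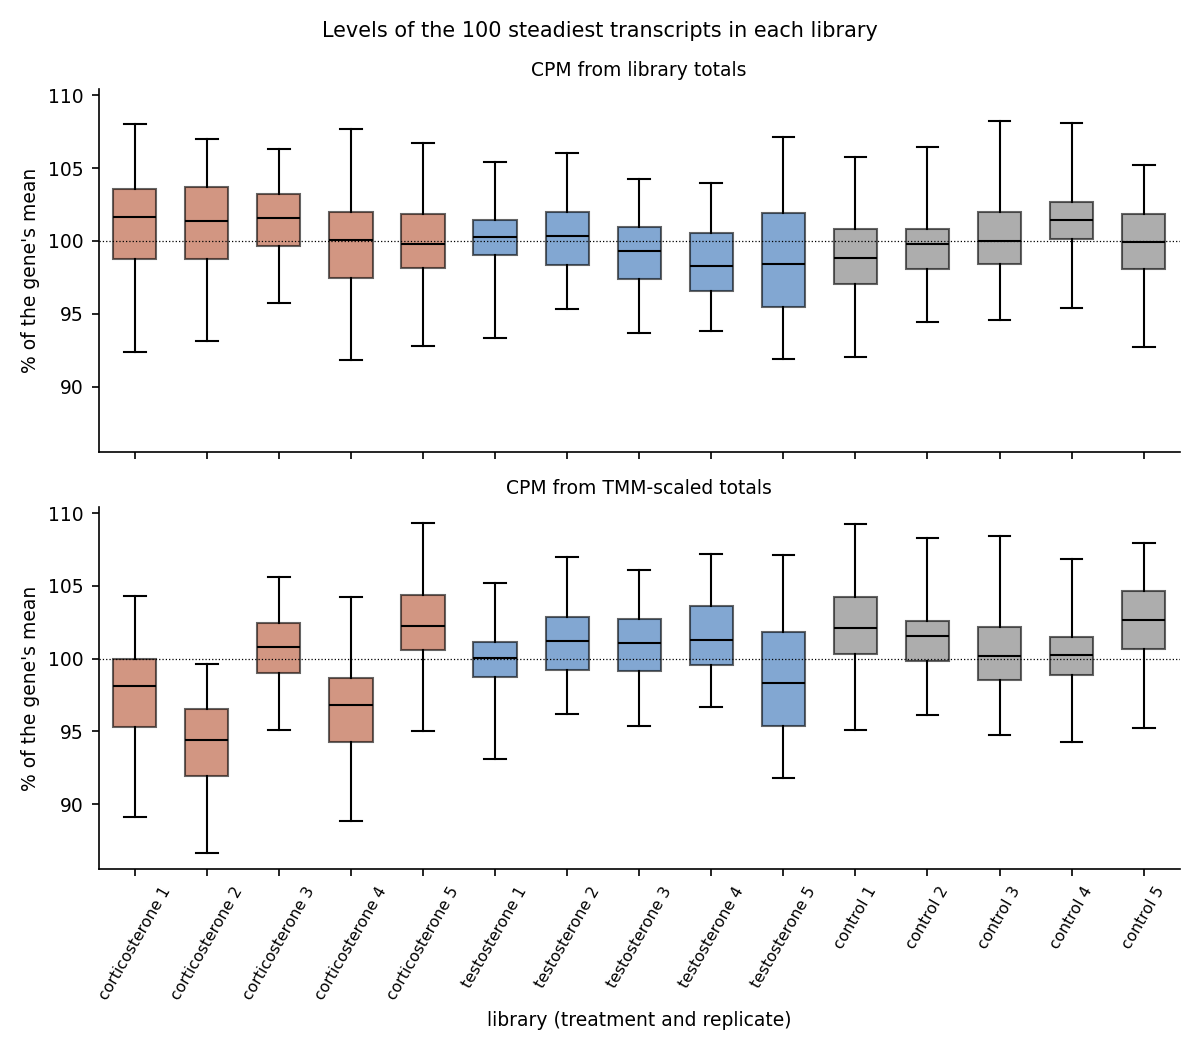
Level of the 100 steadiest transcripts in each library as a percentage of each gene's own mean (vertical), by treatment and replicate (horizontal); boxes span the quartiles, lines mark the medians and whiskers reach the extremes. With CPM from library totals the medians lie between 98.3% and 102%, and with TMM-scaled totals the median of corticosterone replicate 2 falls to 94.4%.

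The members together took 1.84 ± 0.017% of the counts after corticosterone, 1.81 ± 0.018% after testosterone and 1.82 ± 0.020% in controls (SD, n = 5 each). Within a group, the median member had a CV of 2.98% among corticosterone libraries, 2.83% among testosterone libraries and 2.56% among controls. The candidates had 7.26%, 6.07% and 6.10% in the same order. On library totals, differences between groups made up 14.4% of the variance of the median member and 17.6% of that of the median candidate. With the TMM scaling of edgeR, described further on, the order turned round, at 17.2% for the median member and 14.9% for the median candidate. Means of 5 libraries differ even where no treatment acts, so a large part or all of each share can arise from variation among libraries alone. That part was not taken off, and the shares do not measure an effect of treatment.

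Group means of single members lay close together, the highest 2.55% above the lowest at the median and 0.259% to 6.80% over the 100. On library totals the corticosterone mean was the highest of the 3 for 61 members, the testosterone mean for 8 and the control mean for 31, where the shares over all candidates were 60.3%, 17.2% and 22.5%. The corticosterone mean was the lowest for 18 members, the testosterone mean for 57 and the control mean for 25, where the shares over all candidates were 22.9%, 33.3% and 43.9%. This order did not hold with TMM. There the corticosterone mean was the highest for 1 member and the lowest for 86, the testosterone mean was the highest for 23 and the lowest for 11, and the control mean was the highest for 76 and the lowest for 3. Over all candidates on that scale, the corticosterone mean was the highest for 32.6% and the lowest for 43.3%. In the same order the shares were 30.2% and 23.0% for the testosterone mean and 37.1% and 33.7% for the control mean. Picked for flat CPM on library totals, the members mirror the TMM factors on the TMM scale. Their order there largely follows from the choice and is not a result about the members. On library totals, 98 members had group means within 5% of each other. The widest gap was at rank 97, where the mean ± SD over 5 libraries was 60.7 ± 1.12 CPM in the corticosterone group, 56.8 ± 1.65 CPM in the testosterone group and 59.4 ± 0.304 CPM in the control group. The other was at rank 41, with 309 ± 4.90 CPM after corticosterone, 293 ± 7.38 CPM after testosterone and 299 ± 7.93 CPM in controls. These are the CPM that the rule used, and no test is attached to them.

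Steadiness depended on how the libraries were scaled. TMM, the trimmed mean scaling of edgeR, sets the library total so that most genes agree between libraries, and its factors ran from 0.967 in control replicate 1 to 1.07 in corticosterone replicate 2. A factor above 1 lowers every CPM of that library. The highest factor was 1.11 times the lowest, whereas the summed counts of the members, as a share of the library, differed by 1.04 times at most. With TMM-scaled totals the median CV of the same 100 members was 3.58%, and that of the candidates was 6.64%. The members, picked on library totals, thus spread more and the candidates less.

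ENSGALG00000007664 showed this shift. With TMM-scaled totals it was at 237.6, 230.5, 251.3, 237.3 and 251.1 CPM after corticosterone, against 254.8, 250.2, 254.8, 249.99 and 261.6 CPM in controls. Corticosterone replicates 1, 2 and 4, whose TMM factors are the highest, were then its lowest libraries. Its CV became 3.35% and its rank 170 of 4162 candidates. ENSGALG00000040506, last by library totals, had a CV of 3.58% and came out at rank 243.

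Of the 100 members, 25 were also among the 100 genes of lowest CV with TMM-scaled totals, and 63 were among the first 400. The median rank was 239 and the lowest-placed member was at 1165. One member was the steadiest of all by the TMM scale. It was rank 67 by library totals, with a CV of 3.18% there and 1.83% on the TMM scale, and a mean of 134 CPM. The 25 shared genes had a median mean level of 137 CPM, and on either scale none of them had a CV above 3.33%.

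Counts for all genes were tested with edgeR's quasi-likelihood test on TMM-scaled totals. Of 24881 genes, 14260 passed its filter on low counts, and all 100 members were among them. Every member was far above that filter, with a lowest count of 648 in any library. As the rule favours genes without differences between groups, the counts below describe the members and support nothing about the hormones.

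For corticosterone against control, 9 members had an unadjusted p under 0.05, all of them lower after corticosterone, where 9.44% of the 14260 genes had one and 5.70% were lower. In either direction the members' share was near that of all genes and below the 13.0% of the candidates. The share lower was above that of all genes and near the 9.46% of the candidates. None of the members passed the Benjamini-Hochberg threshold of 0.05, with a smallest edgeR adjusted p of 0.474, and neither did any other gene (0.00%). DESeq2 gave 9 members at an unadjusted p under 0.05 and 0 past its adjusted threshold. The share of all genes was not taken with DESeq2, so its count of members cannot be set against one. The 9 members had log2 fold changes of -0.11 to -0.09. The median log2 fold change was -0.04 over the members and -0.0019 over all genes tested. A negative value was found for 97 members and for 7229 of the 14260 genes. As the members were picked for flat CPM on library totals, their shared direction with TMM largely follows from the choice and the TMM factors. This direction did not hold on library totals, where the median member was at 0.01 and the median of all genes at 0.05. There 65 members had a positive value, as had 9512 of the 14260 genes. On that scale 0 members had an unadjusted p under 0.05 (12.3% of all genes had one). Leaving out corticosterone replicates 1 and 2, the count of members at an unadjusted p under 0.05 was 0 with TMM as well. The share of all genes was not taken without these libraries.

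ENSGALG00000032925, at rank 83, had the lowest log2 fold change of corticosterone against control. Its CPM from library totals was 120.7, 116.7, 124.9, 123.3 and 117.6 after corticosterone, 117.9, 119.3, 120.0, 127.6 and 123.4 after testosterone and 124.8, 130.6, 121.4, 126.3 and 125.85 in controls. The corticosterone and control values overlapped. The log2 fold change was -0.11 ± 0.045 with TMM (SE, edgeR adjusted p = 0.474) and -0.06 ± 0.042 on library totals (edgeR adjusted p = 0.545). On the TMM scale its CV was 5.15%, at rank 1128.

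ENSGALG00000041401, at rank 53, had the highest log2 fold change of that comparison. Its level was 103.0, 99.3, 96.3, 93.1 and 98.5 CPM after corticosterone, 94.9, 93.5, 96.0, 93.2 and 94.1 CPM after testosterone and 95.4, 93.2, 93.95, 93.9 and 91.7 CPM in controls. Corticosterone replicates 1, 2 and 5 were its highest libraries, while replicate 4 lay within the controls. The log2 fold change was 0.01 ± 0.040 with TMM (SE, edgeR adjusted p = 0.942) and 0.07 ± 0.041 on library totals (edgeR adjusted p = 0.489), and it was -0.0017 with TMM without corticosterone replicate 1. It was among the 25 members steady on either scale, with a CV of 3.10% on library totals and 2.99% with TMM.

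**Figure D3:**
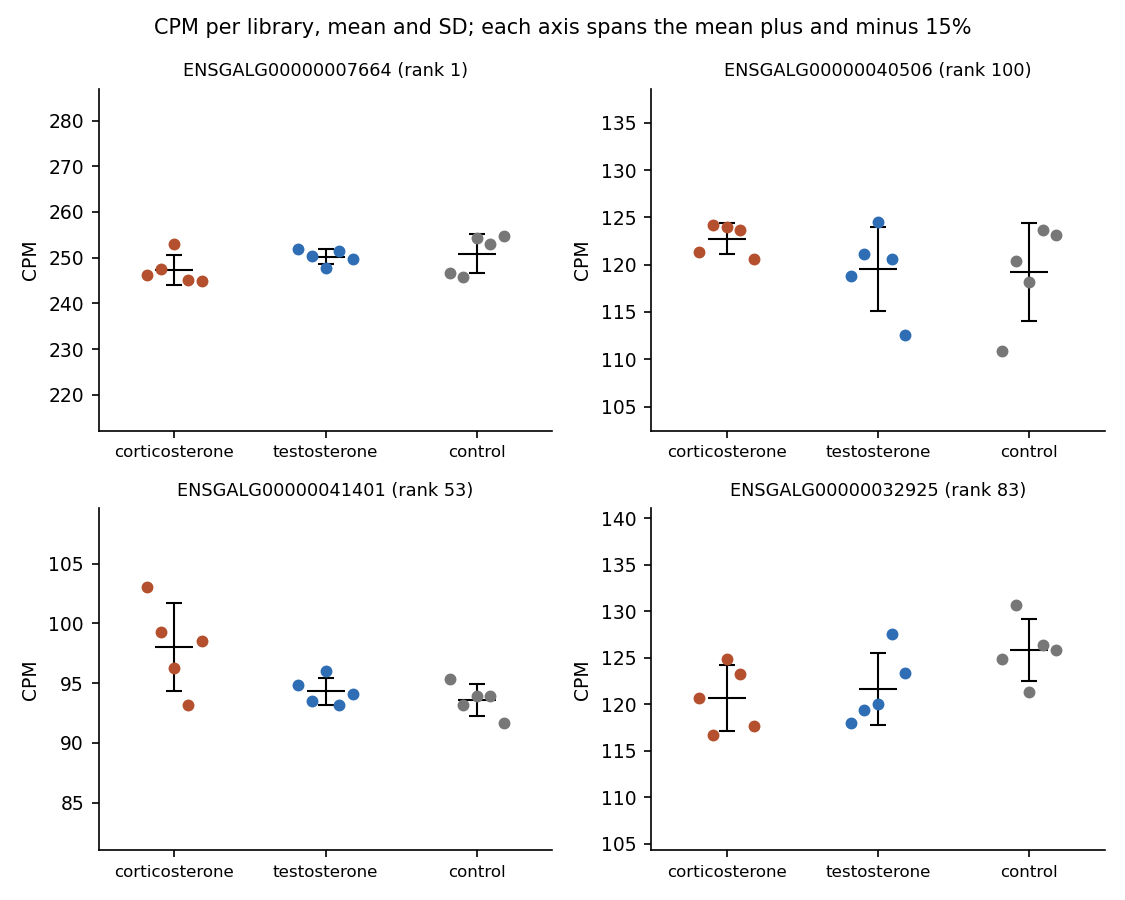
CPM from library totals (vertical) of the 4 members called by identifier, by treatment (horizontal); points are libraries, and bars mark the mean and SD of 5 libraries. Each vertical axis spans the gene's mean plus and minus 15% and does not start at 0; the groups overlap in all 4 panels.

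For testosterone against control, 0 members had an unadjusted p under 0.05, where 3.40% of all genes had one. With DESeq2 the count of members was 0, and the share of all genes was not taken. Log2 fold changes of the members ran from -0.07 to 0.06 with a median of -0.01, and the median of all genes tested was -0.0038. On library totals the median was -0.0090 over the members, with 0 members called again (2.92% of all genes). Values did not overlap between the groups for 0 members with TMM (0.638% of all genes) and for 2 members on library totals (0.554% of all genes). One was the rank 6 member, at 72.2 to 73.1 CPM after testosterone and 68.8 to 71.6 CPM in controls. The other was rank 97, at 55.0 to 58.9 CPM after testosterone and 59.0 to 59.9 CPM in controls.

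For corticosterone against testosterone, 2 members had an unadjusted p under 0.05, both lower after corticosterone, where 6.37% of all genes had one and 4.31% were lower. The smallest edgeR adjusted p among the members was 0.622. With DESeq2, 3 members had an unadjusted p under 0.05, all lower after corticosterone, and 0 passed its adjusted threshold. Its share of all genes was not taken. The median log2 fold change was -0.03 over the members and 0.0015 over all genes with TMM. On library totals the sign turned, with a median of 0.02 over the members and 0.05 over all genes, and 1 member was called, higher after corticosterone (7.90% of all genes were called on that scale, 5.40% higher).

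Values of the hormone groups did not overlap for 3 members with TMM, all lower after corticosterone (1.19% of all genes, in either direction). On library totals they did not overlap for 4 members, all higher after corticosterone (1.33% of all genes, in either direction). Shares of all genes by direction were not taken, so the members' direction cannot be set against them. At rank 48, for example, the CPM from library totals was 733 to 780 after corticosterone and 706 to 728 after testosterone. At rank 14 the TMM-scaled CPM was 189 to 207 after corticosterone and 215 to 219.9 after testosterone. For corticosterone against control the groups overlapped for every member on both scales (1.25% of all genes did not overlap with TMM and 1.64% on library totals).

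**Figure D4:**
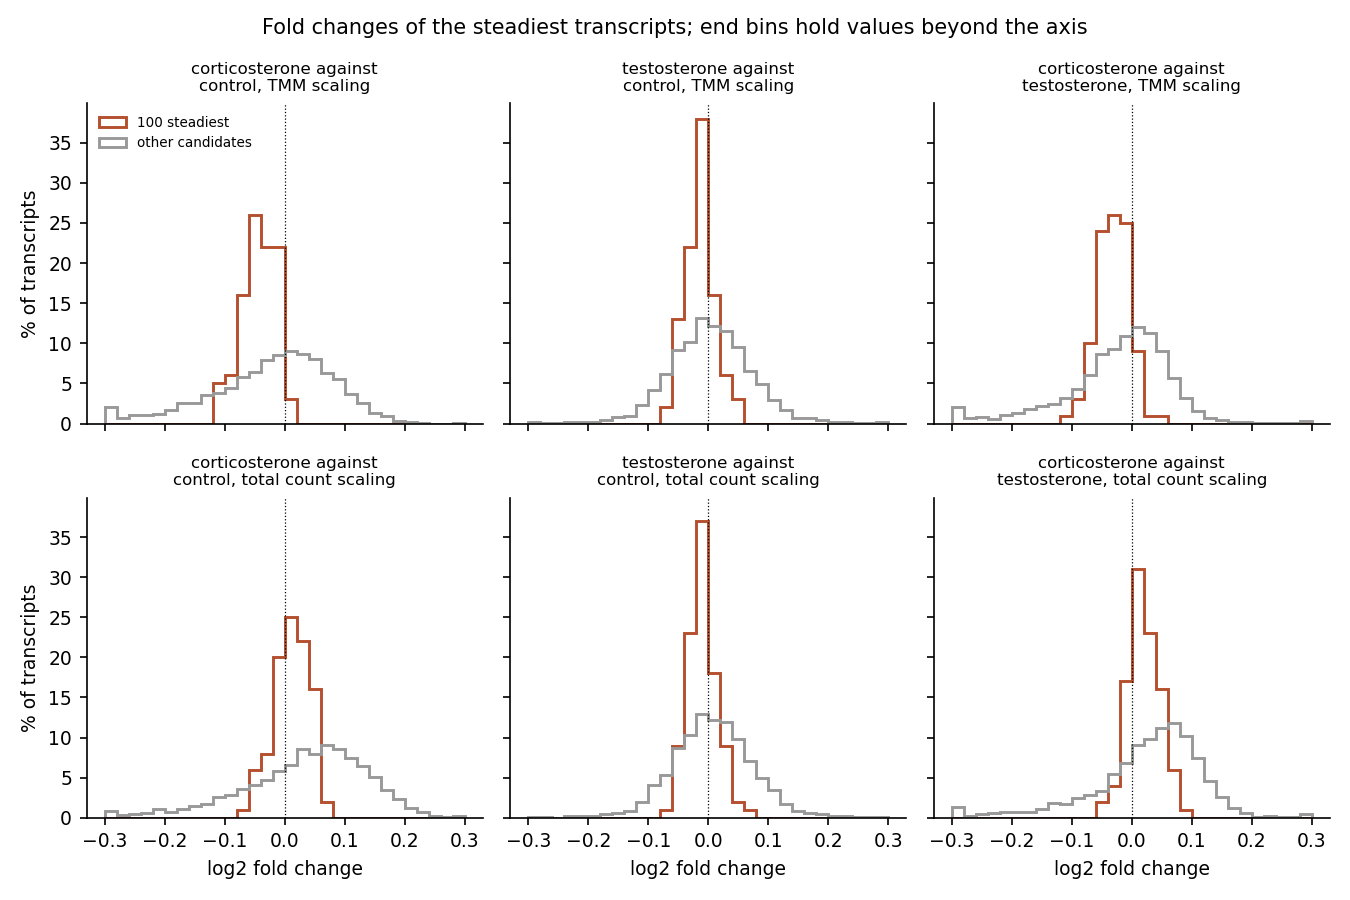
Distribution of log2 fold changes (horizontal; end bins also hold values beyond the axis) as a percentage of transcripts (vertical) for the 100 steadiest transcripts and the other candidates, in 3 comparisons (columns) with TMM or total-count scaling (rows). The members' values stay between -0.11 and 0.09 in every panel, and in both comparisons of corticosterone their centre lies below 0 with TMM and above 0 with total counts.

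With the summed count of the members as the library size, as when reference genes are used, 1619 of 14260 genes had an unadjusted p under 0.05 for corticosterone against control, 1134 higher and 485 lower. The split was 533 higher and 813 lower with TMM and 1351 higher and 399 lower on library totals. For testosterone against control the members' scale gave 461 genes, 290 higher and 171 lower, against 265 and 220 with TMM and 220 and 197 on library totals. For corticosterone against testosterone it gave 967 genes, 501 higher and 466 lower, against 294 and 615 with TMM and 770 and 357 on library totals. None of these genes passed the adjusted threshold on the members' scale, where the smallest edgeR adjusted p was 0.427, 0.772 and 0.072 in the 3 comparisons. The members were chosen to be constant on library totals, so a scale made from them is not independent of those totals.

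The same choice was made with 1 group of libraries left out, to measure steadiness where the choice had not used it. Picked on testosterone and control libraries, 100 genes had a median CV of 2.51% there and 4.28% in the corticosterone libraries, where all 4130 candidates of that choice had 7.26%. Picked on corticosterone and control libraries, the median was 4.24% in the testosterone libraries, against 6.07% over the candidates. Picked on both hormone groups, it was 3.73% in the controls, against 6.12% over the candidates. In the left-out libraries the picked genes thus spread more than where they were picked and less than the candidates. The candidates had 6.43%, 7.52% and 7.29% in the libraries of the 3 choices, in the same order. A CV of the choice spans 10 libraries of 2 groups, and a left-out CV spans 5 libraries of 1 group. The left-out CV therefore does not measure steadiness between treatments. Counting error alone would give the picked genes 1.73%, 1.85% and 1.68% in the left-out corticosterone, testosterone and control libraries.

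Of the 100 genes picked each time, 85, 83 and 87 had a CV below the candidates' median in the left-out corticosterone, testosterone and control libraries. In the lowest 10% of the candidates there were 29, 25 and 31, and in the highest 10% there were 0, 1 and 0. With TMM-scaled totals throughout, the median CV of the picked genes in the left-out libraries was 4.18%, 3.84% and 3.35%, against 6.61%, 5.86% and 5.70% over the candidates. The TMM factors came from all 15 libraries, so on that scale the left-out libraries were not wholly outside the choice. The lists of library totals shared 48, 52 and 56 genes with the 100 members. On library totals the mean level of the picked genes in the left-out libraries differed from that in the others by 1.66% for corticosterone, -1.60% for testosterone and -0.608% for controls at the median, against 3.06%, -1.12% and -1.68% for the candidates. With TMM the differences were -0.116%, -0.0719% and -0.743%, against -0.662%, 0.531% and 0.324% for the candidates.

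**Figure D5:**
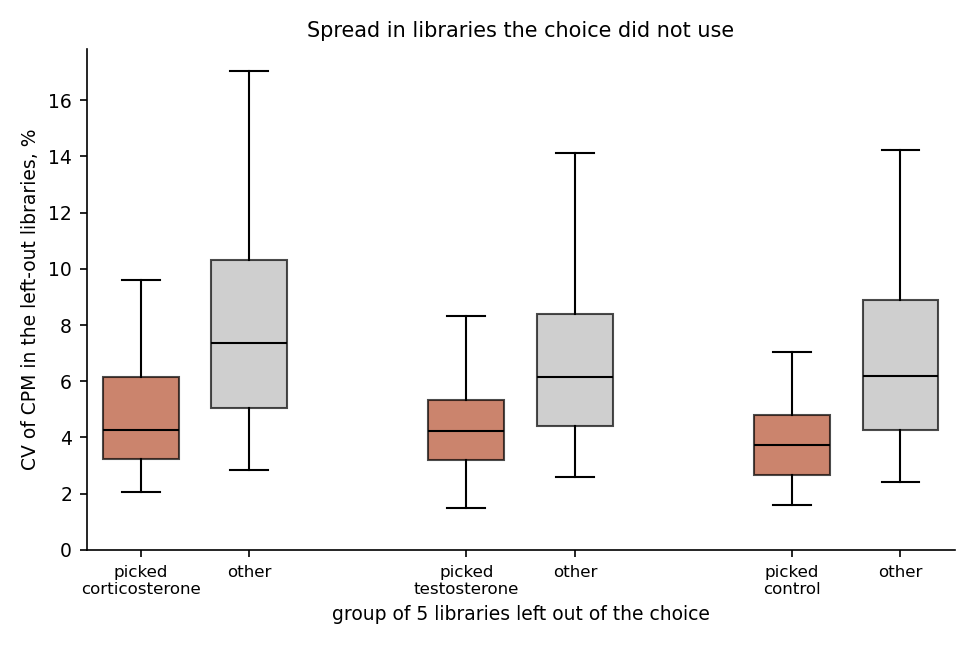
CV of CPM (vertical, %) in 5 libraries that the choice had not used, for the 100 genes picked on the other 10 libraries and for the other candidates, by the group left out (horizontal); boxes span the quartiles, lines mark medians and whiskers reach from the lowest to the highest 5%. The medians of the picked genes are 4.28%, 4.24% and 3.73%, each below that of the other candidates, and the boxes overlap.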

How the data were processed

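RNA was extracted from pooled germinal disc regions and sequenced with a strand-specific Illumina kit, per the labels' protocols. The values deposited by the authors are raw counts of reads for each gene, in a single table whose 15 columns all matched a sample by label (0 rows without a gene). Per the submitters' processing notes, the tools were TopHat2 2.0.14 and HTSeq 0.6.1p1. The build, annotation and strand setting were not given in the sources used here. Overlapping genes or close paralogs among the members may therefore hold misassigned reads. The labels name no batch.

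CPM were computed from library totals. Counting CVs assume Poisson counts, and intervals of a CV use the chi-square distribution with 95% coverage for a gene not chosen by its CV. Counts were fitted with edgeR 4.0.16 in R 4.3.3 (filterByExpr by group, TMM, robust quasi-likelihood, 1 mean per group over all 15 libraries), with Benjamini-Hochberg adjustment over all genes tested, and with DESeq2 1.42.0 as an alternative. The test was checked on simulated data in which 200 genes changed 2-fold. That check does not cover changes as small as those of the members. SEs derive from the F statistic.

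The members, the lists and the rules were chosen with earlier results of these data known. Lists of segregation, steroid response, reference and cell type genes could not be applied without symbols. Without symbols, the rule for named genes took the members of lowest and highest CV and those with the largest positive and negative log2 fold change of corticosterone against control. Alternatives were other scalings, filters, tools and forms of the ranking, a replicate block, and leaving out libraries. Leaving out corticosterone replicates 1 and 2 together was chosen after seeing the data.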

Additional observations from a re-analysis of the deposited data

Results flagged for a closer look

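Testosterone replicate 5 had a total of 12913729 counts, far below the other testosterone libraries, which ran from 25979882 to 30390157. It was 1 value found among 27 groups of 5 values examined for a library far from the others (depth, TMM factor, the members' share and median level on both scales, and the 4 members called by identifier). Chance gives about 1 in 20 such groups. Its share of counts taken by the members was 1.79%, against 1.79% to 1.83% in the other testosterone libraries.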

How the results depend on the processing

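With other forms of the ranking, 25 of the 100 members were picked again on TMM-scaled totals and 33 with the median absolute deviation over the median, whose 100 genes had a median CV of 3.87%. Without the corticosterone, testosterone or control libraries, 48, 52 and 56 were picked again, and the median CV of the picked genes was 2.51% and 2.66% in the first 2 of these. Without corticosterone replicates 1 and 2 together 66 were picked again, and 37 with TMM-scaled totals as well. Counts of 69 to 99 came from the other 7 forms. Leaving out 1 library kept 70 to 92 members with a median CV of 2.88% to 3.15%.

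The 9 members at an unadjusted p under 0.05 for corticosterone against control (9.44% of all genes) became 5 with RLE (9.33%). They became 5 with upper-quartile scaling (9.69%), 0 on library totals (12.3%) and 0 on the members' own scale (11.4%). They became 0 without a low-count filter and 2 in a fit of these groups alone. Without 1 library the count ran from 1 (control replicates 1 or 2) to 11. It was 2 when corticosterone replicate 2 or control replicate 5 was left out, 3 when corticosterone replicate 1 was, and 5 when testosterone replicate 1, 3 or 4 or control replicate 3 was. The count of 2 members for corticosterone against testosterone (6.37% of all genes) became 1 on library totals (7.90%) and 0 on the members' scale (6.78%). It became 1 without a filter and 1 in a fit of these groups alone. The member called on library totals was rank 97, higher after corticosterone, whereas the 2 called with TMM were ranks 6 and 14. Without 1 library the count ran from 0 (corticosterone replicate 2) to 4 (corticosterone replicate 3 or testosterone replicate 5), with 1 without corticosterone replicate 1 or 4 or testosterone replicate 4. Leaving out corticosterone replicates 1 and 2 together gave 0 for both, and testosterone against control gave 0 in every alternative run. The cause was not tested. Shares of all genes were taken for the scalings only. The members' counts from other filters, from fits of single pairs of groups and without some libraries therefore cannot be set against all genes. The log2 fold change of ENSGALG00000041401 for corticosterone against control ran from -0.0017 (without corticosterone replicate 1) to 0.033 (without corticosterone replicate 4) when 1 library was left out.

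With the replicate number as a block, corticosterone against control gave 5 members at an unadjusted p under 0.05, testosterone against control gave 0 and corticosterone against testosterone gave 2. The share of all genes was not taken in the block fit, so these counts cannot be set against one. The labels do not say that equal numbers pair pools. Over the 15 pairs of equal number, the correlation of deviations from the group means ran from -0.183 to 0.226 and exceeded 0.1 in 4, and 3 of 15 libraries correlated best with their own number. Steadiness below the counting CV is not detectable at this depth.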
